A study of Mus musculus with 12 samples.

Results

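Sterol and fatty acid synthesis was followed through 30 genes of the pathway, listed by name: 17 enzymes of sterol synthesis, 7 enzymes that make or modify fatty acids, and 6 regulators or transport proteins. They were 30 of the 22997 genes tested. A gene was represented by the probe that carries its name or a synonym, and where 12 of the genes had more than 1 of the 43 such probes, by the brightest over the 12 arrays. All 30 genes passed the filter on dim probes, and 28 were well above background on all 12 arrays. On mm9, the build of the array files, the probe of Cyp51 lies at chr5:4081471-4081530, that of Idi1 at chr13:8891524-8891583, that of Insig1 at chr5:28404246-28404305 and that of Scd1 at chr19:44469387-44469446. Exons and UTRs of that build were not used here. The list was drawn up with earlier results of these data in view, so its counts are set beside those of all genes tested and are read only as descriptions.

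RNA came from macrophages grown from the bone marrow of 2 Commd1 knockout and 2 wildtype mice for 10 days with GM-CSF (20 ng/mL), a growth factor for myeloid cells. Each mouse gave an untreated sample, a sample given lipopolysaccharide (LPS, a component of the outer membrane of Gram-negative bacteria, here at 10 ng/mL) for 3 h, and one given it for 24 h. That gave 6 groups of 2: knockout untreated, knockout LPS 3 h, knockout LPS 24 h, wildtype untreated, wildtype LPS 3 h and wildtype LPS 24 h. Each sample was read on its own single-colour array. COMMD1 is a protein of an endosomal sorting complex that also acts on NF-kB and copper export. How the knockout was made, and the strain, age and sex of the mice, are not given in the sources used here. Replicate 1 of a genotype is the same mouse at all 3 times, and so is replicate 2, and p-values measure the spread over these few cultures.

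Cells build cholesterol from acetyl-CoA through mevalonate, isoprenoid and squalene intermediates to lanosterol, which is then trimmed to cholesterol. The same acetyl-CoA feeds fatty acid synthesis. Both branches are controlled by SREBP transcription factors (encoded by Srebf2, mainly for sterol genes, and Srebf1, mainly for fatty acid genes), which SCAP escorts out of the endoplasmic reticulum when sterols are low and which the INSIG proteins hold back when sterols are high. In macrophages, inflammatory signals are known to act on this pathway, and sterol intermediates and oxysterols in turn act on inflammatory genes.

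Levels below are log2 processed intensities minus the array's 75th percentile, so 0 is the 75th percentile, and levels of different genes are not set against each other. The words rose, fell, higher and lower are kept for genes where limma's moderated test, fitted to all 12 arrays, gave a Benjamini-Hochberg adjusted p under 0.05 over all genes. Values after ± are standard errors of log2 differences, with n = 2 per group. In bulk RNA, fewer cells of a type and less RNA per cell cannot be told apart.

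Commd1, the targeted gene, had levels of -0.50 and -0.01 in untreated knockout and 2.72 and 2.79 in untreated wildtype cells (-3.01 ± 0.23, adjusted p = 0.00166 by limma), and was lower in knockout cells at the other times too. The position of its probe relative to the deleted part was not worked out. All 8 macrophage markers were well above background on all 12 arrays. Their summed level, in multiples of the array's 75th percentile, was 331 to 342 in untreated knockout and 278 to 297 in untreated wildtype cells. It was 438 to 517 and 391 to 396 after 3 h, and 376 to 394 and 393 to 408 after 24 h (knockout, then wildtype). Of the 8, 1 was higher in knockout cells untreated, 1 was lower at 3 h and 1 was lower at 24 h. The median difference of the 8, knockout minus wildtype, was 0.31 untreated, 0.22 at 3 h and -0.13 at 24 h. The 5 dendritic cell markers, of which Flt3, Zbtb46 and Itgax were above background on all arrays, summed to 1.84 to 2.27 in untreated knockout and 4.89 to 5.12 in untreated wildtype cells. At 3 h they summed to 5.84 to 6.70 in knockout and 6.87 to 8.01 in wildtype, and at 24 h to 0.99 to 1.13 in knockout and 1.49 to 1.53 in wildtype. In untreated cells nearly all of that sum is Itgax, 1 of the 5 markers passed (Itgax, lower in knockout), and the median difference between the genotypes was -0.11. The 4 measured neutrophil markers summed to 20.4 to 21.1 in knockout and 21.7 to 22.9 in wildtype untreated, 11.7 to 13.8 and 16.8 to 17.0 at 3 h, and 21.1 to 23.8 and 22.9 to 25.6 at 24 h. Nearly all of that sum is Elane. The median difference of the 4, knockout minus wildtype, was -0.84 untreated, -0.49 at 3 h and -0.75 at 24 h, and none of them passed. Adipocyte markers, listed because adipocytes make fatty acids, summed to at most 0.0527 on any array, those of B cells to at most 0.105, of T and NK cells to at most 0.758 and of erythroid cells to at most 0.0679. The 3 stroma markers summed to 1.39 to 3.53. Spike-in RNAs of known amount gave a log2 slope of 0.794 to 0.799 on knockout and 0.735 to 0.743 on wildtype arrays in untreated and 3 h samples, and of 0.842 to 0.869 and 0.820 to 0.824 at 24 h. The part of cell mixture and array slope in the results below was not tested. Arrays of 1 LPS time shared a slide and each genotype had its own positions on it, so slide and time, and position and genotype, cannot be told apart.

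The promoters of 24 of the 30 genes were found in the RefSeq table (GRCm38.p6). The 250 bases before each start site were searched on both strands for the sterol regulatory element core TCACNCCAC, to which SREBPs bind, for the NF-Y box CCAAT and the GC box GGGCGG, bound by factors known to work beside SREBPs, and for the palindromic E-box CACGTG. The CCAAT box was present in all 14 sterol enzyme genes in the table, 2 of 5 fatty acid enzyme genes and 4 of 5 regulators, against 37.5% of all 27025 genes in the table. GGGCGG was present in 13 of the 14 sterol enzyme genes, 2 of 5 fatty acid enzyme genes and 5 of 5 regulators (35.4% of all genes), and CACGTG in 3, 0 and 2 (6.86% of all genes). The sterol element core was found in 1 gene, Hmgcs1 (1.22% of all genes). Genes with several start sites were counted if any of their windows held the motif. These letters are a description of the sequence and not evidence of binding.

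The 6 promoters below belong to genes on which the results turn, with the matches to the 4 motifs on either strand in capitals, which did not overlap each other in these windows. In knockout cells Hmgcs1, Idi1, Cyp51, Insig1 and Elovl6 rose at 3 h and fell at 24 h of LPS, and Mvd fell at both times. Hmgcs1 is shown for its sterol element, and Elovl6 as a fatty acid gene with none of the 4 motifs in its window.
Hmgcs1 (chr13:119690101-119690350, plus strand): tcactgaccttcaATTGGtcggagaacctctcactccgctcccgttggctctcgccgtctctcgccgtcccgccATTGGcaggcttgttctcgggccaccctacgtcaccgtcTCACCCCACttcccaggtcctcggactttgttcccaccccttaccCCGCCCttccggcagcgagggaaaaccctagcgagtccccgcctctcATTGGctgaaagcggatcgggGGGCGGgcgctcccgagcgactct
Idi1 (chr13:8885356-8885605, plus strand): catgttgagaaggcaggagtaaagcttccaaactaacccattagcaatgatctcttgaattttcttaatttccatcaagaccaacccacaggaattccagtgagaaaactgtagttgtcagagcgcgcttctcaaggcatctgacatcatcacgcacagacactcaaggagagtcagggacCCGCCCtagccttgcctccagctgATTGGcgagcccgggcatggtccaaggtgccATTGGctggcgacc
Cyp51 (chr5:4104698-4104947, minus strand): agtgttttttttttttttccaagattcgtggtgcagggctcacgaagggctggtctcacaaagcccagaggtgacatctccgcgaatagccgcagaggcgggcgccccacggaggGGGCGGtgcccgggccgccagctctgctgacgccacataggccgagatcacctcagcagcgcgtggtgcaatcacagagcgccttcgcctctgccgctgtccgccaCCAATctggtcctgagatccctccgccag
Insig1 (chr5:28071162-28071411, plus strand): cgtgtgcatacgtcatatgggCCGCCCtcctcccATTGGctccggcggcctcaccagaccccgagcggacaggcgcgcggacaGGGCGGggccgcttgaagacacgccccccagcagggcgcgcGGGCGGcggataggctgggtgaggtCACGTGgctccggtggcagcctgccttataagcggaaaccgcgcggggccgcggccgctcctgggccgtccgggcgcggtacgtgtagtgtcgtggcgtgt
Mvd (chr8:122443423-122443672, minus strand): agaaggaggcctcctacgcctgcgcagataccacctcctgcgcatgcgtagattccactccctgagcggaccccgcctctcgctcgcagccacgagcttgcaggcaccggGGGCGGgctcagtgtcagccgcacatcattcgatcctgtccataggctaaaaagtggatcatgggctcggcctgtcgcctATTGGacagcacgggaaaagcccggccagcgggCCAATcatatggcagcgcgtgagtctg
Elovl6 (chr3:129532136-129532385, plus strand): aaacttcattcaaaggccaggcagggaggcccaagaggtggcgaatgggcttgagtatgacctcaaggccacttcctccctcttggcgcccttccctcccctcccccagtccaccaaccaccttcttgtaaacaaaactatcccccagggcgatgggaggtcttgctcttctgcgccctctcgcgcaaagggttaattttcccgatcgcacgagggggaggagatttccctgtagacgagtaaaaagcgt

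**Figure D1:**
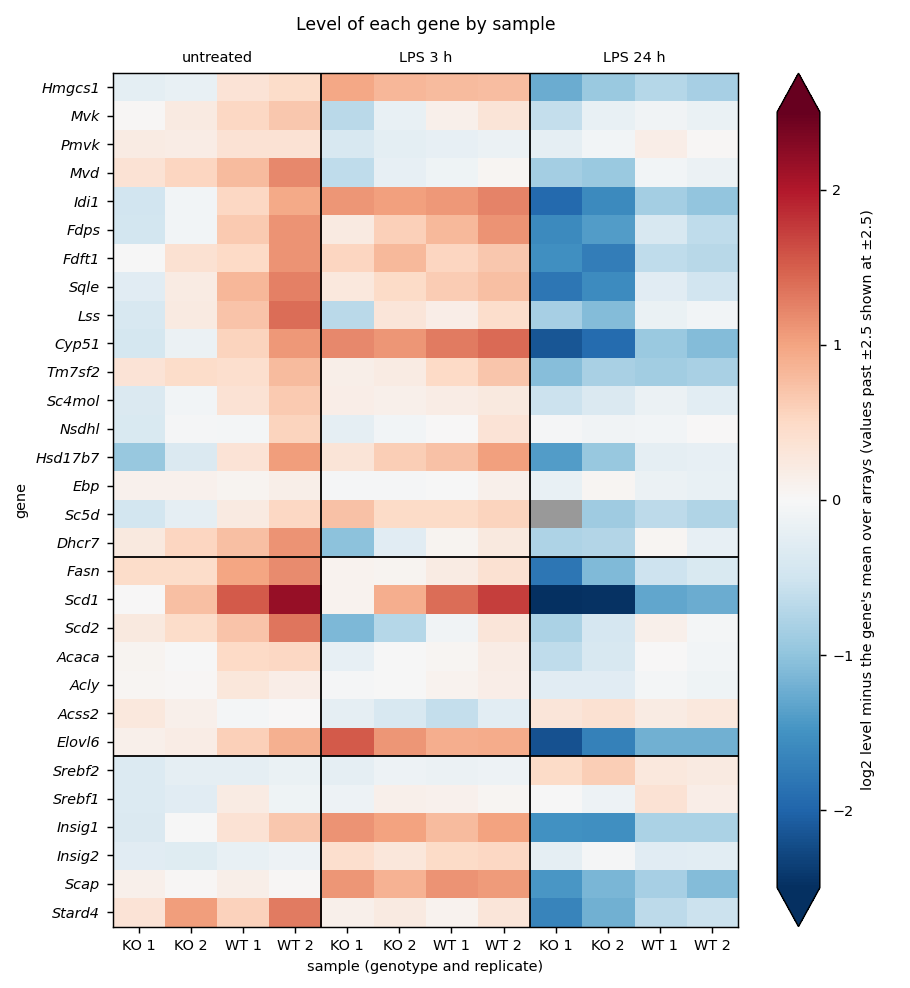
Log2 level of each of the 30 genes (rows, grouped into sterol enzymes, fatty acid enzymes, and regulators and transport) in each of the 12 samples (columns, knockout and wildtype replicates at each LPS time), minus the gene's mean over arrays. Most rows are lowest at 24 h, and the grey cell is the missing Sc5d value of knockout LPS 24 h replicate 1.

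At 3 h of LPS 6 of the 17 sterol enzymes rose in knockout cells, 4 fell and 7 did not pass. Enzymes that rose were Hmgcs1, Idi1, Fdps, Cyp51, Hsd17b7 and Sc5d, and those that fell were Mvk, Pmvk, Mvd and Dhcr7. In wildtype cells 2 of the 17 rose (Cyp51 and Hmgcs1), 3 fell (Mvd, Pmvk and Dhcr7) and 12 did not pass. Among all genes, 26.4% rose and 25.7% fell in knockout and 23.2% rose and 23.3% fell in wildtype cells. The knockout counts were near the shares of all genes and are not a result about the sterol enzymes. The median sterol enzyme change was 0.36 in knockout cells (0.06 over all genes) and -0.09 in wildtype cells (0.03 over all genes).

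Cyp51, the lanosterol demethylase, had levels of -0.16 and -0.25 after 3 h and -1.81 and -1.51 untreated in knockout cells, and of -0.07 and 0.07 after 3 h and -0.80 and -0.27 untreated in wildtype cells. Both LPS arrays lay above both untreated ones in each genotype. The change was 1.45 ± 0.18 in knockout (2.74-fold, adjusted p = 2.0e-04) and 0.54 ± 0.18 in wildtype cells (1.45-fold, adjusted p = 0.0405). Idi1, the isomerase that makes the active isoprenoid unit, had 3.26 and 3.17 after 3 h and 1.67 and 2.08 untreated in knockout cells, against which wildtype cells had 3.24 and 3.39 after 3 h and 2.68 and 3.1 untreated. It rose by 1.34 ± 0.19 in knockout cells (2.53-fold, adjusted p = 0.000421), and its wildtype difference of 0.43 ± 0.19 did not pass (adjusted p = 0.0975). The knockout and wildtype levels of both genes lay close together at 3 h and apart in untreated cells.

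Hsd17b7, a ketosteroid reductase of the demethylation steps, had -2.30 and -2.01 after 3 h and -3.58 and -2.99 untreated in knockout cells, a rise of 1.13 ± 0.28 (2.19-fold, adjusted p = 0.00902). In wildtype cells it had -1.90 and -1.61 after 3 h and -2.29 and -1.58 untreated, where the ranges overlapped (0.18 ± 0.28, adjusted p = 0.637). Hmgcs1, the synthase that commits acetyl-CoA to the mevalonate route, rose by 1.12 ± 0.12 in knockout (4.66 and 4.51 after 3 h, 3.44 and 3.5 untreated) and by 0.38 ± 0.12 in wildtype cells (4.47 and 4.46 after 3 h, 4.03 and 4.14 untreated), with adjusted p of 6.06e-05 and 0.0262. Fdps, the farnesyl diphosphate synthase, rose by 0.68 ± 0.21 and Sc5d, the sterol C5 desaturase, by 0.94 ± 0.15 in knockout cells, and their wildtype differences of 0.08 and 0.14 did not pass.

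Mvd, Pmvk and Dhcr7 fell in both genotypes. Mvd, the mevalonate diphosphate decarboxylase, had -1.48 and -1.05 after 3 h and -0.48 and -0.32 untreated in knockout cells, and -0.96 and -0.79 after 3 h and -0.05 and 0.36 untreated in wildtype cells. The arrays did not overlap, and the changes were -0.87 ± 0.17 (adjusted p = 0.00302) in knockout and -1.03 ± 0.17 (adjusted p = 0.00143) in wildtype cells. Dhcr7, which makes cholesterol in the last step, had -3.39 and -2.66 after 3 h and -2.12 and -1.83 untreated in knockout cells, and -2.31 and -2.12 after 3 h and -1.61 and -1.24 untreated in wildtype cells. It changed by -1.05 ± 0.24 in knockout (adjusted p = 0.00582) and by -0.79 ± 0.24 in wildtype cells (adjusted p = 0.025). The phosphomevalonate kinase Pmvk changed by -0.52 and -0.54, and the mevalonate kinase Mvk by -0.56 in knockout and, without passing, -0.37 in wildtype cells. Mvk, Pmvk and Mvd are the 3 consecutive enzymes between mevalonate and the isoprenoid unit that Idi1 isomerises. The remaining sterol enzymes (Fdft1, Sqle, Lss, Tm7sf2, Sc4mol, Nsdhl and Ebp) had changes of -0.22 to 0.49 in knockout and -0.76 to 0.01 in wildtype cells, none of which passed.

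**Figure D2:**
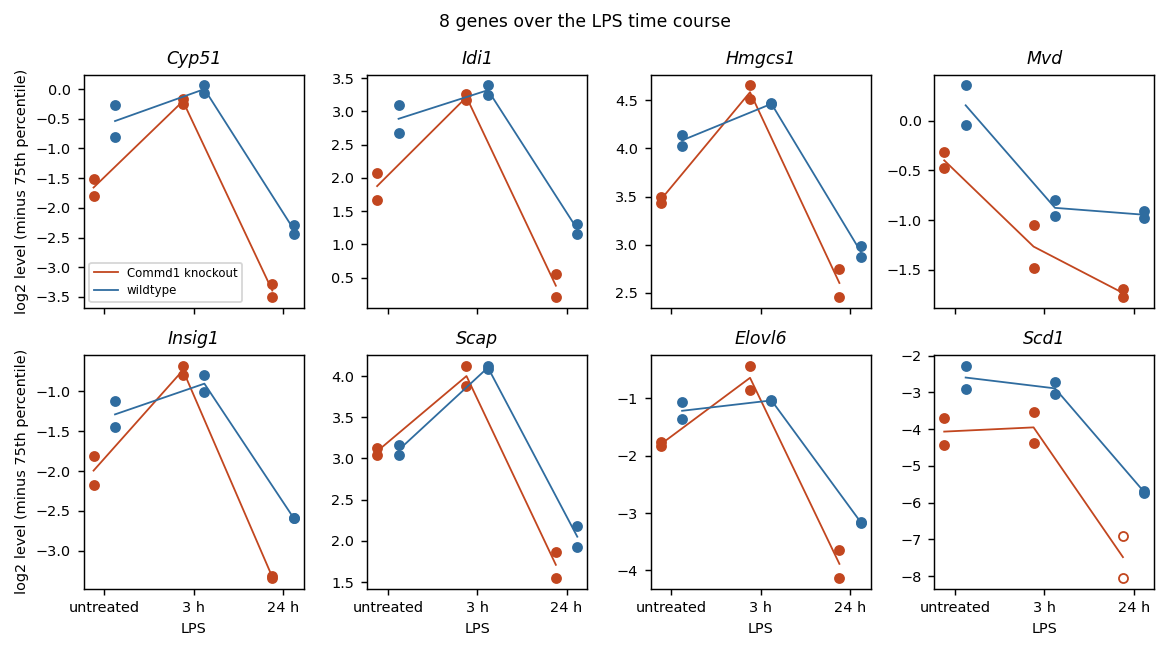
Log2 level (minus the array's 75th percentile) of 8 genes at the 3 LPS times, with 1 point per sample for knockout (left, red) and wildtype (right, blue) cells, lines through group means and open points for values not well above background. The lines of Cyp51, Idi1, Hmgcs1, Insig1 and Elovl6 come close or cross at 3 h and lie further apart at the other times. Of the 8 genes only Cyp51 and Insig1 differed between the genotypes by limma both untreated and at 24 h. No difference of responses passed. Mvd is lower at 3 h and 24 h than untreated in both genotypes, and Scap overlaps between genotypes up to 3 h.

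Of the fatty acid enzymes at 3 h, in knockout cells 1 of 7 rose (Elovl6) and 2 fell (Scd2 and Acss2), with a median of -0.13 and a share near that of all genes (25.7% falling). In wildtype cells 0 of 7 rose and 4 fell (Scd2, Fasn, Acss2 and Acaca), with a median of -0.40 (23.3% of all genes fell). Scd2, a desaturase that makes monounsaturated fatty acids, had 1.24 and 1.66 after 3 h and 2.62 and 2.84 untreated in knockout cells, and 2.28 and 2.67 after 3 h and 3.09 and 3.70 untreated in wildtype cells. It changed by -1.28 ± 0.25 in knockout (adjusted p = 0.00241) and by -0.92 ± 0.25 in wildtype cells (adjusted p = 0.015), and the arrays did not overlap. Acss2, which makes acetyl-CoA from acetate, had -0.66 and -0.82 after 3 h and -0.17 and -0.30 untreated in knockout cells, and -1.03 and -0.70 after 3 h and -0.47 and -0.43 untreated in wildtype cells (changes of -0.51 ± 0.12 and -0.41 ± 0.12, adjusted p = 0.00789 and 0.0238).

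Elovl6, which elongates the product of fatty acid synthase, was the fatty acid gene that rose. Its levels were -0.43 and -0.85 after 3 h and -1.84 and -1.77 untreated in knockout cells, a rise of 1.16 ± 0.19 (2.23-fold, adjusted p = 0.000967). In wildtype cells they were -1.04 and -1.03 after 3 h and -1.37 and -1.07 untreated (0.18 ± 0.19, adjusted p = 0.472). Fasn, the fatty acid synthase, had -5.32 and -5.15 after 3 h and -4.55 and -4.36 untreated in wildtype cells (-0.78 ± 0.20, adjusted p = 0.0127) and changed by -0.38 ± 0.20 in knockout cells (adjusted p = 0.15). Acaca, the acetyl-CoA carboxylase, fell by 0.40 in wildtype cells and had a difference of -0.13 in knockout cells. Acly, the ATP citrate lyase, differed by -0.06 and -0.11, and the stearoyl-CoA desaturase Scd1 by 0.11 and -0.30, in knockout and wildtype cells, and neither passed.

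Of the regulators, Scap and Insig2 rose in both genotypes and Insig1 in knockout cells, so that 3 of 6 rose in knockout, 2 of 6 in wildtype and 0 fell in either (26.4% of all genes rose in knockout and 23.2% in wildtype cells). Scap had 4.12 and 3.88 after 3 h and 3.13 and 3.05 untreated in knockout cells, and 4.13 and 4.08 after 3 h and 3.16 and 3.04 untreated in wildtype cells (0.91 ± 0.14 and 1.00 ± 0.14, adjusted p = 0.000655 and 0.000492). Insig2 had 1.88 and 1.75 after 3 h and 1.18 and 1.15 untreated in knockout cells, and 1.93 and 1.97 after 3 h and 1.27 and 1.33 untreated in wildtype cells (0.65 ± 0.09 in each, adjusted p = 0.000436 and 0.000559). The responses of these 2 genes differed between knockout and wildtype by -0.09 ± 0.20 (Scap) and -0.00 ± 0.13 (Insig2). Insig1, itself a sterol-responsive gene, had -0.68 and -0.79 after 3 h and -2.18 and -1.81 untreated in knockout cells (1.26 ± 0.15, 2.39-fold, adjusted p = 1.5e-04). In wildtype cells it had -1.01 and -0.80 after 3 h and -1.45 and -1.13 untreated (0.39 ± 0.15, adjusted p = 0.0665).

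Srebf1 had differences at 3 h of 0.31 in knockout and 0.02 in wildtype cells, and Stard4, a sterol transfer protein, of -0.52 and -0.75, none of which passed. Srebf2 had 0.11 and 0.05 with its brighter probe. Its dimmer probe, at a mean level of -0.35, went differently, with 0.52 and 0.54 after 3 h and -1.02 and -0.64 untreated in knockout cells, and 0.17 and 0.42 after 3 h and -0.76 and -0.26 untreated in wildtype cells, so that the arrays of that probe did not overlap. Stard4 also has a dimmer probe of opposite sign at 3 h, with mean changes of 1.28 in knockout and 0.39 in wildtype cells. What the paired probes detect was not tested. The count of members called at 3 h in wildtype cells, 11 in all, was 4 without wildtype LPS 3 h replicate 1, and the wildtype call of Cyp51 did not pass with quantile normalization, with the 75th percentile over probes detected on all arrays, with no filter on dim probes or with only the groups compared. The wildtype calls of Scd2 and Acss2 did not pass with only the groups compared.

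After 24 h of LPS, against untreated cells, 21 of the 30 genes fell in knockout cells and 25 in wildtype cells. In knockout cells 12 of 17 sterol enzymes, 6 of 7 fatty acid enzymes and 3 of 6 regulators fell, and 1 member, Srebf2, rose. In wildtype cells 16, 6 and 3 fell, and again 1, Srebf2, rose. Over all genes 31.5% fell and 26.0% rose in knockout, and 26.4% fell and 23.6% rose in wildtype cells. The median changes of sterol enzymes were -0.87 in knockout and -1.10 in wildtype cells, those of fatty acid enzymes -0.96 and -0.98, and those of all genes -0.07 and -0.04.

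Cyp51 had -3.51 and -3.28 at 24 h in knockout cells and -2.28 and -2.44 in wildtype cells, 3.33-fold and 3.54-fold below untreated cells (-1.73 ± 0.18 and -1.82 ± 0.18, adjusted p = 7.53e-05 and 8.44e-05). Fdft1, the squalene synthase, had -1.98 and -2.17 at 24 h and -0.46 and -0.07 untreated in knockout cells, and -1.08 and -1.14 at 24 h and 0.06 and 0.67 untreated in wildtype cells. Its changes were -1.82 ± 0.21 in knockout (adjusted p = 0.000135) and -1.47 ± 0.21 in wildtype cells (adjusted p = 0.000613), while a second, much dimmer Fdft1 probe had mean changes of 0.51 and 0.28. Sqle, the squalene epoxidase, had 0.69 and 0.91 at 24 h and 2.20 and 2.69 untreated in knockout cells (-1.65 ± 0.20, adjusted p = 0.000161), and fell by 1.42 in wildtype cells. Idi1 had 1.30 and 1.15 at 24 h in wildtype cells (-1.66 ± 0.19, adjusted p = 0.000177), and fell by 1.5 in knockout cells. For these 4 genes every 24 h array lay below every untreated array of its genotype. The share of all genes with that order is not given here, so it is a description only.

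Of the others, Hmgcs1, Fdps, Mvd, Tm7sf2, Dhcr7, Pmvk, Mvk and Sc5d fell in both genotypes, by 0.34 to 1.34 in knockout and by 0.27 to 1.44 in wildtype cells. Tm7sf2, a sterol C14 reductase, had 0.15 and 0.40 at 24 h and 1.57 and 1.67 untreated in knockout cells, and 0.34 and 0.40 at 24 h and 1.63 and 2.00 untreated in wildtype cells. Hsd17b7, Lss (the lanosterol synthase), Sc4mol (Msmo1, the C4 methyl sterol oxidase) and Ebp (a sterol isomerase) fell in wildtype cells, by 0.90, 1.18, 0.71 and 0.27. Their knockout differences of -0.51, -0.87, -0.24 and -0.18 did not pass. Nsdhl, which removes C4 carboxyl groups, passed in neither genotype (0.14 in knockout and -0.29 in wildtype). The Sc5d value of knockout LPS 24 h replicate 1 was dropped as an uneven spot, so its fit there rests on 1 array.

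Among the fatty acid enzymes Scd1 was furthest down. It had -5.74 and -5.69 at 24 h and -2.92 and -2.27 untreated in wildtype cells, 8.71-fold lower (-3.12 ± 0.43, adjusted p = 0.000513). In knockout cells it was not well above background on either 24 h array and had -4.44 and -3.70 untreated, which makes it at least 4.53-fold lower at 24 h (adjusted p = 0.000222). Such a bound sets the mean of the brighter group against the lowest signal well above background on each array of the dimmer one. The probe's own signal there is used if that is higher. An adjusted p beside a bound is that of the fit to the measured signals, not of the bound. Elovl6 had -4.13 and -3.64 at 24 h in knockout cells and -3.17 and -3.16 in wildtype cells (-2.09 ± 0.19 and -1.95 ± 0.19, adjusted p = 3.32e-05 and 7.31e-05). Fasn, a dim probe throughout, was at least 2.25-fold lower than untreated in knockout cells, where both 24 h arrays were not well above background (adjusted p = 7.6e-05). In wildtype cells it had -6.06 and -5.92 at 24 h (-1.54 ± 0.20, adjusted p = 0.000364). With normexp background correction the 24 h change of Fasn was -0.21 in knockout cells and did not pass. Scd2, Acaca and Acly also fell in both genotypes, by 0.31 to 0.98. Acss2 had 0.15 in knockout and 0.26 in wildtype cells and did not pass.

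Stard4 had -3.00 and -2.54 at 24 h and -1.0 and -0.30 untreated in knockout cells, and -2.0 and -1.90 at 24 h and -0.77 and -0.05 untreated in wildtype cells (-2.12 ± 0.29 and -1.54 ± 0.29, adjusted p = 0.000319 and 0.00241). Scap had 1.55 and 1.87 at 24 h in knockout and 2.17 and 1.93 in wildtype cells (-1.38 ± 0.14 and -1.05 ± 0.14, adjusted p = 6.13e-05 and 0.000398), after having risen at 3 h. Insig1 had -3.32 and -3.34 at 24 h in knockout and -2.59 and -2.59 in wildtype cells (-1.33 ± 0.15 and -1.30 ± 0.15, adjusted p = 0.000113 and 0.000186). All 3 genes lay below untreated on every 24 h array, again without the share of all genes beside it. Srebf2 had 4.21 and 4.36 at 24 h and 3.39 and 3.51 untreated in knockout cells, and 4.00 and 3.95 at 24 h and 3.52 and 3.57 untreated in wildtype cells (0.83 ± 0.09 and 0.43 ± 0.09, adjusted p = 7.61e-05 and 0.00383). The dimmer Srebf2 probe did not show this rise, with mean changes of -0.18 in knockout and -0.09 in wildtype cells. Insig2 and Srebf1 differed by 0.17 and 0.24 in knockout and by -0.12 and 0.21 in wildtype cells and did not pass.

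**Figure D3:**
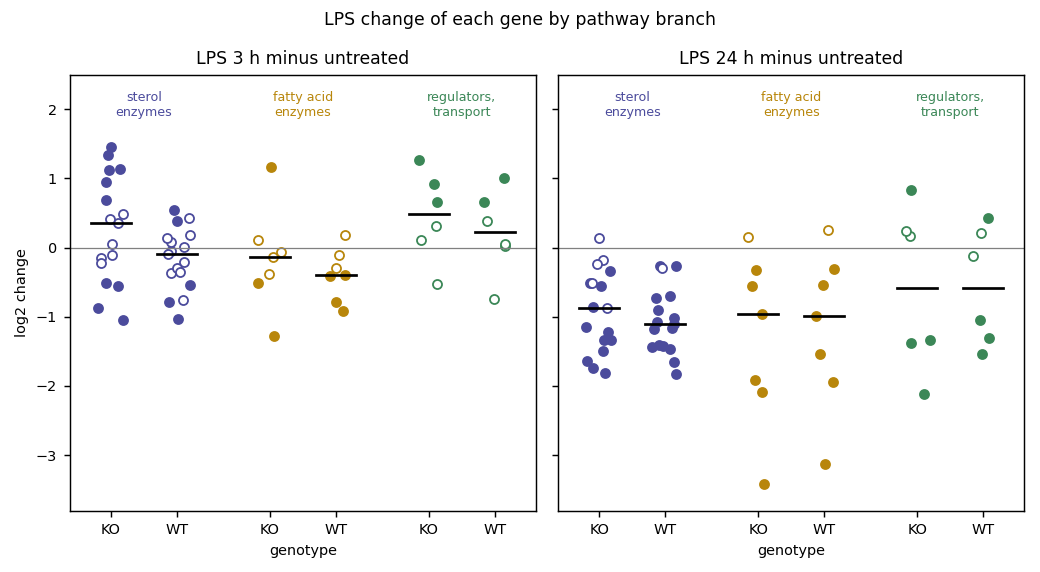
Log2 change of each gene at LPS 3 h (left) and 24 h (right) against untreated cells, by branch and genotype, with filled points for adjusted p under 0.05 and black lines for medians. At 3 h the sterol enzyme medians are 0.36 in knockout and -0.09 in wildtype cells, and at 24 h the sterol and fatty acid medians all lie between -1.10 and -0.87.

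Set against 3 h, the 24 h samples showed the turn of the time course. In knockout cells 20 members fell and 2 rose (Acss2 and Srebf2), and in wildtype cells 17 fell and 3 rose (Acss2, Srebf2 and Pmvk). Over all genes 32.6% fell and 26.3% rose in knockout, and 26.9% fell and 25.7% rose in wildtype cells. The dimmer Srebf2 probe went the other way, with mean changes of -1.54 in knockout and -0.89 in wildtype cells. The brighter Srebf2 probe had 0.72 and 0.38. The median changes were -1.12 in knockout and -1.07 in wildtype cells over sterol enzymes, -0.42 and -0.21 over fatty acid enzymes, -1.04 and -0.78 over regulators, and -0.09 and -0.04 over all genes. Cyp51 was 9.12-fold lower at 24 h than at 3 h in knockout cells (-3.19 ± 0.18, adjusted p = 2.49e-06) and 5.14-fold lower in wildtype cells (-2.36 ± 0.18, adjusted p = 1.7e-05). For Idi1 the changes were -2.84 ± 0.19 in knockout and -2.09 ± 0.19 in wildtype cells, with levels at 24 h of 0.20 and 0.55 and of 1.30 and 1.15. Hmgcs1 had 2.45 and 2.75 at 24 h in knockout and 2.98 and 2.87 in wildtype cells (-1.98 ± 0.12 and -1.54 ± 0.12, adjusted p = 2.72e-06 and 1.44e-05). Fdft1, with 0.09 and 0.37 at 3 h in knockout cells, changed by -2.30 ± 0.21 there (adjusted p = 3.14e-05). The second, much dimmer Fdft1 probe had mean changes of 0.39 in knockout and 0.72 in wildtype cells.

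Insig1 changed by -2.59 ± 0.15 in knockout and -1.69 ± 0.15 in wildtype cells between 3 h and 24 h, Scap by -2.29 ± 0.14 and -2.05 ± 0.14, and Elovl6 by -3.25 ± 0.19 and -2.13 ± 0.19. Scd1, with -4.37 and -3.54 at 3 h in knockout and -3.05 and -2.73 in wildtype cells, was at least 4.90-fold lower at 24 h in knockout cells and 7.10-fold lower in wildtype cells. Fasn had -5.44 and -5.47 at 3 h in knockout cells and was at least 1.73-fold lower at 24 h, with a change of -0.76 ± 0.20 in wildtype cells. With normexp these changes of Fasn were -0.09 in knockout and -0.12 in wildtype cells, and with the common spike-in slope -0.19 in wildtype cells, and none of these passed. Stard4 had -1.22 and -1.12 at 3 h in knockout cells and -1.27 and -1.04 in wildtype cells, and changed by -1.60 ± 0.29 and -0.79 ± 0.29. Mvd, Dhcr7, Mvk, Pmvk, Scd2 and Acaca, with wildtype changes of -1.03 to -0.37 at 3 h, had wildtype differences of -0.36 to 0.26 between 24 h and 3 h, of which only the rise of Pmvk passed. Fasn, Stard4, Lss and Acss2 were in that same 3 h range, with wildtype changes of -0.78 to -0.41. Between 24 h and 3 h Fasn and Stard4 fell in wildtype cells as given above, Lss differed by -0.42 and Acss2 rose by 0.67. The wildtype call of Stard4 (adjusted p = 0.0463) did not pass with quantile normalization, with the 75th percentile over probes detected on all arrays, with no filter or with a common spike-in slope.

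The centred sterol median was above the centred fatty acid median in every 3 h sample. Each gene was centred on its mean over arrays, and the median over the genes of a branch was taken per sample. The sterol median minus the fatty acid median was 0.20 and 0.31 in knockout and 0.39 and 0.25 in wildtype cells at 3 h. Untreated cells had -0.41 and -0.09 in knockout and -0.08 and 0.06 in wildtype, and 24 h cells -0.16 and -0.51 in knockout and -0.16 and -0.15 in wildtype. All 4 samples at 3 h were above the other 8, and as the 3 h samples shared a slide no test was made. With means in place of medians that order did not hold. Knockout 24 h replicate 1 had means of -1.05 over sterol and -1.29 over fatty acid enzymes. Knockout 3 h replicate 1 had means of 0.12 and 0.02.

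Before LPS, part of the sterol branch was lower in knockout than in wildtype cells. Of the 30 members 10 were lower and 0 higher: 8 of 17 sterol enzymes (Hsd17b7, Fdps, Cyp51, Sqle, Idi1, Sc4mol, Sc5d and Hmgcs1), 1 of 7 fatty acid enzymes (Acaca) and 1 of 6 regulators (Insig1). Among all genes 3.01% were lower and 3.73% higher. Both knockout arrays lay below both wildtype arrays in 24 of the 30 genes, as they did in 25.8% of all genes. The median difference was -0.62 over sterol enzymes, -0.59 over fatty acid enzymes, -0.19 over regulators and 0.04 over all genes.

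Hsd17b7 differed by -1.35 ± 0.28 (2.55-fold lower in knockout, adjusted p = 0.0322) and Cyp51 by -1.12 ± 0.18 (2.17-fold, adjusted p = 0.0169), with the untreated levels given above. Fdps had 3.11 and 3.5 in knockout and 4.24 and 4.70 in wildtype cells (-1.16 ± 0.21, 2.24-fold lower in knockout, adjusted p = 0.0237). Insig1 differed by -0.71 ± 0.15 (adjusted p = 0.035). Acaca had 1.28 and 1.19 in knockout and 1.70 and 1.73 in wildtype cells (-0.48 ± 0.11, adjusted p = 0.0405). The other called enzymes, Sqle, Idi1, Sc4mol, Sc5d and Hmgcs1, had differences of -1.09 to -0.62. Scd1 had the most negative difference of the 30, -1.47 ± 0.43, which did not pass (adjusted p = 0.0821), and neither did Lss with -1.14 ± 0.35 (adjusted p = 0.09). Ebp and Scap had 0.00 and -0.01.

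These calls rest on few arrays. None of the 30 genes, and no gene at all, passed when only the 4 untreated arrays were fitted, and 0 members passed without knockout untreated replicate 1 or without wildtype untreated replicate 2. With no filter on dim probes 1 passed, and with levels scaled to a common spike-in slope, a setting chosen after seeing the data, 17 passed. Mice of 1 genotype also differed in these genes: replicate 2 was above replicate 1 in 15 of 17 sterol enzymes in untreated knockout cells (median 0.30) and in 17 of 17 in untreated wildtype cells (median 0.41), against -0.04 over all genes in each. On these same arrays Itgax, which makes up most of the dendritic marker sum, was lower in knockout cells (0.78 and 1.14 in knockout, 2.33 and 2.27 in wildtype, adjusted p = 0.0273), and its part in the differences was not tested.

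**Figure D4:**
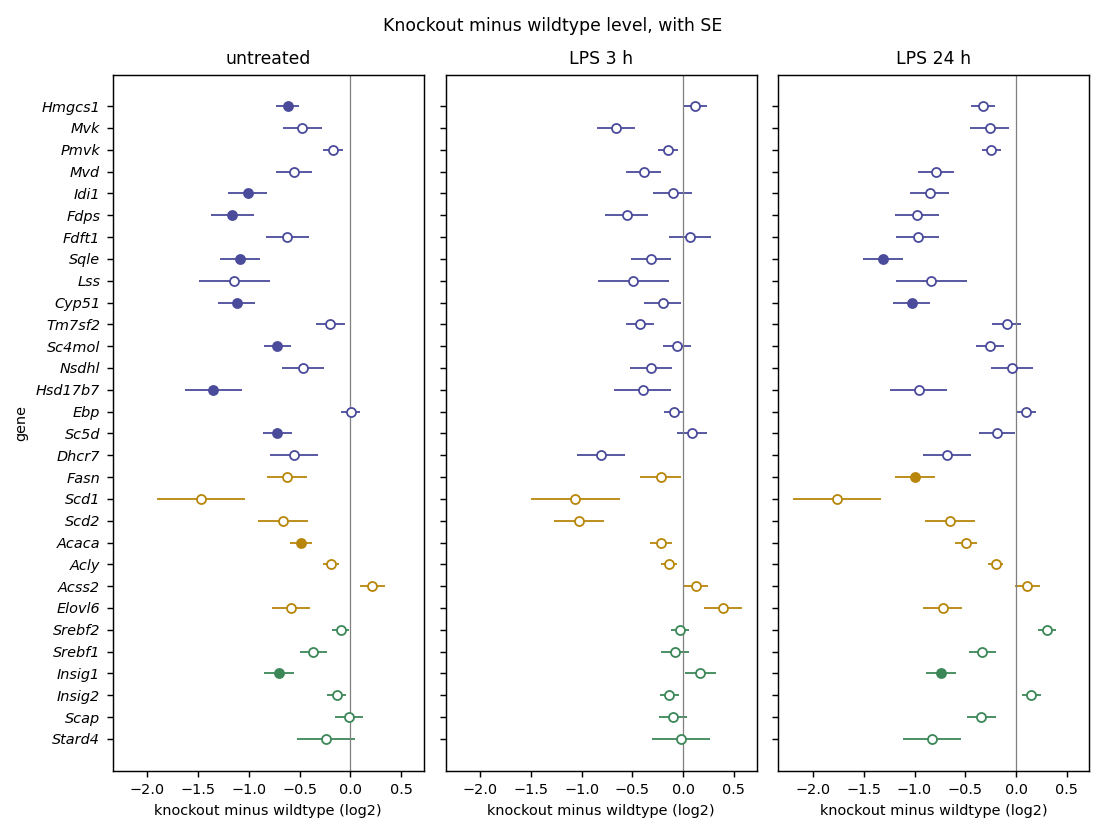
Knockout minus wildtype log2 level of each of the 30 genes in untreated cells and after 3 h and 24 h of LPS, with standard errors from the fit and filled points for adjusted p under 0.05. Filled points number 10, 0 and 4 and all lie below 0, and Fasn and Scd1 at 24 h are drawn at processed signals that in knockout cells were not well above background.

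After 3 h of LPS 0 of the 30 genes differed between knockout and wildtype cells by limma, and 6 had an unadjusted p under 0.05, as had 24.3% of all genes. Over all genes 1.06% were higher and 0.600% lower in knockout cells. Both knockout arrays lay below both wildtype arrays in 18 of the 30 genes and in 26.1% of all genes. The median difference was -0.32 over sterol enzymes and -0.22 over fatty acid enzymes (0.03 over all genes). With 1 array left out in turn it ranged from -0.40 to -0.15 over sterol enzymes, and from -0.29 to -0.13 over fatty acid enzymes, nearest to 0 without knockout replicate 1 or wildtype replicate 2. Those with the most negative values were Scd1 (-1.06 ± 0.43), Scd2 (-1.03 ± 0.25, adjusted p = 0.0672) and Dhcr7 (-0.81 ± 0.24), while Cyp51, Idi1 and Hmgcs1 had -0.20, -0.10 and 0.12. The count was 7 with a common spike-in slope, 3 without knockout LPS 3 h replicate 2 and 2 with normexp.

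After 24 h of LPS 4 of the 30 genes were lower in knockout cells and 0 were higher, against 1.67% and 0.722% of all genes. They were Sqle, Cyp51, Fasn and Insig1. The median difference was -0.68 over sterol enzymes, -0.65 over fatty acid enzymes (-0.49 with Fasn and Scd1 at their bounds), -0.34 over regulators and 0.00 over all genes. Sqle had 0.69 and 0.91 in knockout and 2.21 and 2.02 in wildtype cells (-1.31 ± 0.20, 2.48-fold lower in knockout, adjusted p = 0.0245). Cyp51 differed by -1.03 ± 0.18 (2.04-fold lower, adjusted p = 0.0363) and Insig1 by -0.74 ± 0.15 (adjusted p = 0.0484). Fasn, not well above background in knockout cells, was at least 1.19-fold lower there (adjusted p = 0.0466), and with normexp its difference was 0.0013. Scd1 was at least 1.44-fold lower in knockout cells, without passing (adjusted p = 0.0718).

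Closest to the threshold at 24 h were Fdft1, Fdps, Mvd, Acaca and Idi1, with differences of -0.97 to -0.49 and adjusted p of 0.0559 to 0.058. The second, much dimmer Fdft1 probe had a mean difference of 0.02. Both knockout arrays were below both wildtype arrays in 23 of the 29 genes measured on all 4 arrays, and in 26.5% of all genes. With its brighter probe Srebf2 ran the other way at 0.31 ± 0.09, without passing (adjusted p = 0.103). Its dimmer probe had a mean difference of -0.42. No member passed without wildtype LPS 24 h replicate 1, without replicate 2 of that group, with only the groups compared or with no filter, 1 passed without knockout LPS 24 h replicate 1, and 9 passed with the 75th percentile taken over probes detected on all arrays.

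Whether the knockout changed the response to LPS was tested as the difference of the responses, which uses the same untreated samples as the comparisons above. For the 3 h response 0 of the 30 genes passed by limma and 10 had an unadjusted p under 0.05, as had 12.4% of all genes, while after adjustment 0.0261% of all genes passed as higher and 0.00870% as lower. The differences, knockout minus wildtype, had a median of 0.65 over sterol enzymes, 0.26 over fatty acid enzymes, 0.14 over regulators and -0.01 over all genes. Hmgcs1 came nearest, at 0.74 ± 0.16 (adjusted p = 0.133). Insig1 had 0.87 ± 0.21 (adjusted p = 0.159), Elovl6 0.98 ± 0.27 (0.195) and Cyp51 0.92 ± 0.26 (0.205).

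By mouse, the 3 h change of Cyp51 was 1.65 and 1.26 in the knockout mice and 0.73 and 0.34 in the wildtype mice, and that of Hmgcs1 was 1.22 and 1.02 in knockout and 0.45 and 0.31 in wildtype. Both knockout mice were above both wildtype mice in 10 of 17 sterol enzymes, 4 of 7 fatty acid enzymes and 3 of 6 regulators, as in 25.5% of all genes, and below them in 3, 1 and 0, as in 27.4% of all genes. Sqle, Sc4mol and the fatty acid gene Scd1 went in opposite directions in knockout and wildtype mice at 3 h, and Insig2 at 24 h. A dimmer Insig2 probe did not show this in its mean 24 h changes, which were 0.35 in knockout and 0.03 in wildtype cells. Sqle had 0.55 and 0.29 in knockout and -0.19 and -0.51 in wildtype mice. Scd1 had 0.07 and 0.16 in knockout and -0.13 and -0.46 in wildtype mice. None of these changes passed in either genotype, and how many of all genes went in opposite directions was not counted. For the 24 h response 0 of the 30 genes passed by limma and 2 had an unadjusted p under 0.05, as had 14.6% of all genes (after adjustment 0.170% of all genes passed as higher and 0.187% as lower). The medians were 0.16 over sterol enzymes, -0.11 over fatty acid enzymes and -0.05 over all genes.

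Other genes of the pathway came from lists chosen beside the 30 genes, and their counts are read against the shares of all genes, which were 26.4% rising and 25.7% falling at 3 h and 26.0% and 31.5% at 24 h in knockout cells, and 23.2% and 23.3%, and 23.6% and 26.4%, in wildtype cells. On the sterol side (13 genes tested, among them uptake, SREBP cleavage and further synthesis genes), 5 rose and 2 fell at 3 h in each genotype. At 24 h 3 rose and 3 fell in knockout and 3 rose and 5 fell in wildtype cells, with median changes of -0.09 and -0.13. On the fatty acid side (17 tested), 2 rose and 6 fell at 3 h and 4 rose and 8 fell at 24 h in knockout cells, and 2 rose and 7 fell and 3 rose and 8 fell in wildtype cells, with 24 h medians of -0.02 and -0.08. Of 10 genes of oxysterols, their receptors and sterol efflux, 2 rose and 3 fell at 3 h in each genotype, and at 24 h 3 rose and 3 fell in knockout and 3 rose and 2 fell in wildtype cells. Between the genotypes the shares of all genes were smaller. Untreated, 3.01% of all genes were lower and 3.73% higher in knockout, and at 24 h 1.67% were lower and 0.722% higher. In untreated knockout cells 2 sterol side genes were lower, 0 fatty acid side genes differed, and 1 gene of the oxysterol list was higher and 1 lower. At 3 h 0 genes of the 3 lists differed between the genotypes by limma. At 24 h 2 sterol side and 2 fatty acid side genes were lower in knockout.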

How the data were processed

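The authors deposited a scanner file for each of the 12 arrays, with background-subtracted processed intensity per spot, not scaled between arrays, per the file headers (Agilent Feature Extraction 10.7.3.1, per the submitters' processing notes), and a value table on a log2 scale. In that deposited table, 99.5% to 100% of probes well above background equalled the processed log2 signal minus a constant within 0.01, with column medians of -4.50 to -4.30, so it is not centred per gene. Coordinates in the files are mm9.

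Control and outlier spots were left out, spots of a probe averaged, and log2 processed intensity reduced by each array's 75th percentile. Probes (39429) were named by accession (26412), symbol (3854) or synonym (735) in RefSeq, or kept the file's name (8428). A probe entered where some group had it above background on each of its arrays (28446), and the brightest stood for its gene (22997 genes). limma 3.58.1 in R 4.3.3 fitted 6 group means to 12 arrays (6 residual and 2.23 prior degrees of freedom), with two-sided moderated tests and Benjamini-Hochberg adjustment at 0.05 over all genes. It was also run on simulated data with independent noise and changes put into wildtype LPS 3 h only. Such data do not examine the comparisons between genotypes or the pairing of samples by mouse. Python 3.11.15, pandas 2.3.3, numpy 2.4.6 and matplotlib 3.10.9 made tables and plots. Precision is limited by having 2 arrays a group.

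The genes and lists were chosen with earlier results of these data known. By rule every gene is named, and in each comparison up to 3 called genes per branch with the largest changes get all their values. Samples of a mouse are paired by the labels. Differences between the mice of a genotype correlated across genes between times (r of 0.13 to 0.19 in wildtype and 0.12 to 0.36 in knockout). Alternatives changed background correction, scaling, filter, probe rule, arrays fitted and mouse block.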

Additional observations from a re-analysis of the deposited data

How the results depend on the processing

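The series' value table in place of the scanner values moved no count of called genes by over 1.5 times. The counts that other settings moved by more were those between knockout and wildtype and, with 1 array left out, that of wildtype LPS 3 h. In untreated cells 10 genes passed, and 1 passed with no filter on dim probes, 0 with only the groups compared and 17 with a common spike-in slope, a setting chosen after seeing the data. At 3 h 0 passed, and 2 passed with normexp background correction, 1 with only probes detected on all arrays and 7 with the common slope. At 24 h 4 passed, and 7 passed with normexp, 9 with the 75th percentile over probes detected on all arrays, 8 with only such probes, 1 with quantile normalization, 1 with the common slope and 0 with no filter or with only the groups compared. For the difference of the 3 h response 1 gene, Hmgcs1, passed with normexp. The cause of these changes was not tested.

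Leaving out each array in turn gave 4 to 8 genes for wildtype LPS 3 h against untreated, 0 to 8 for knockout against wildtype untreated, 0 to 3 for it at 3 h and 0 to 6 at 24 h. With mouse as a replicate block the counts were 16 and 13 for LPS 3 h, 23 and 25 for 24 h and 22 and 21 for 24 h against 3 h in knockout and wildtype cells, and 10, 0 and 4 between the genotypes untreated, at 3 h and at 24 h, and the block changed no call of a gene with all its values given.

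The medians of a branch stayed within the spread between replicates in 444 recomputations and moved past it in 64. With normexp the fatty acid medians were -0.48 in knockout and -0.53 in wildtype cells at 24 h against untreated, -0.25 in knockout cells at 24 h against 3 h, -0.23 between the genotypes at 24 h and 0.054 for the difference of the 24 h response, the regulators in knockout cells at 24 h had -0.44, and the sterol enzymes had -0.48 between the genotypes at 24 h. With only probes detected on all arrays the fatty acid medians were -0.55 in knockout and -0.54 in wildtype cells at 24 h, -0.49 between the genotypes at 24 h and 0.051 for the difference of the 3 h response. With quantile normalization the 3 h changes in knockout cells were 0.12 over sterol and -0.39 over fatty acid enzymes. With the 75th percentile over probes detected on all arrays the regulators had 0.34 in knockout and 0.11 in wildtype cells at 3 h and -0.72 in knockout cells at 24 h.

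Where all probes of a gene were averaged, the regulators had 0.70 in knockout and 0.41 in wildtype cells at 3 h, -1.32 and -0.98 at 24 h against 3 h, and 0.30 for the difference of the 3 h response. The fatty acid enzymes then had -1.13 at 24 h against untreated and -0.88 against 3 h in knockout cells and 0.048 for the difference of the 3 h response, and the sterol enzymes -0.42 for wildtype 24 h against 3 h and -0.47 between the genotypes at 24 h. With the common slope the sterol medians were -0.87 for wildtype 24 h against 3 h, -0.86 between untreated genotypes and 0.37 for the difference of the 24 h response. Regulators put with their branch gave -0.76 over fatty acid genes at 24 h in each genotype, -1.31 over sterol genes at 24 h against 3 h in knockout cells and 0.41 for the difference of the 3 h response.

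Leaving out each array in turn, the sterol medians ranged from 0.17 to 0.51 in knockout and -0.39 to 0.10 in wildtype cells at 3 h, from -1.18 to -0.83 and -1.26 to -0.90 at 24 h, from -0.86 to -0.56 between untreated genotypes, and from 0.37 to 0.80 and -0.043 to 0.35 for the differences of the 3 h and 24 h responses. The fatty acid medians ranged from -0.30 to -0.050 in knockout cells at 3 h, from -1.15 to -0.78 in knockout and -1.29 to -0.68 in wildtype cells at 24 h, from -0.83 to -0.46 between the genotypes at 24 h, and from 0.043 to 0.35 and -0.29 to 0.11 for the differences of responses. The regulators ranged from -1.21 to -0.88 in knockout cells at 24 h against 3 h, from -0.45 to -0.22 between the genotypes at 24 h and from 0.0043 to 0.22 for the difference of the 3 h response.

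Of 858 recomputed changes of genes with all their values given, 771 kept their direction and passed, 86 kept their direction and did not pass, and 1 turned: Fasn between knockout and wildtype at 24 h, at 0.0013 with normexp. Fasn and Scd1 were not well above background in knockout cells at 24 h, which limits what their values there can show.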
